A study of Mus musculus with 19 samples.

Results

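The genes described are 8 transcription factors of the enteroendocrine lineage, Neurog3, Neurod1, Pax4, Pax6, Isl1, Insm1, Nkx2-2 and Rfx6, which were listed by name for their known role and matched by symbol to 8 of the 55487 genes in the files. No measured value was used as a criterion, though earlier results of these data were known when the genes were listed. Their levels were measured by RNA sequencing of small intestinal crypts, the epithelial pits that hold stem and progenitor cells, in 19 C57BL/6 mice with 1 library per mouse. The groups were ad libitum–fed Nt+/+ mice (n = 5), ad libitum–fed Nt-/- mice (n = 4), Nt+/+ mice deprived of food for 48 hours (n = 5), and Nt-/- mice deprived of food for 48 hours (n = 5), where Nt-/- mice lack the gene for the gut peptide neurotensin. The study kept adult littermates of both sexes, with water present during the fast, and it describes fed and fasted mice of both genotypes that carried a Lgr5-EGFP stem cell reporter, an allele not given in the labels of these libraries. Crypts were released with EDTA from the proximal part of the intestine, so each library is a mixture of all crypt cell types.

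Enteroendocrine cells are the rare hormone-producing cells of the gut epithelium. They arise in the crypt from secretory progenitors that escape Notch signaling. Neurog3 (neurogenin 3) is the basic helix-loop-helix factor that commits a progenitor to the endocrine lineage, and it is switched on only for a short time. Neurod1, another basic helix-loop-helix factor, and Insm1, a zinc-finger repressor, follow it. Nkx2-2 and Rfx6 then act in the choice between endocrine cell types, while Pax4, Pax6 and Isl1 are paired-box and LIM-homeodomain factors needed for particular hormone cells. Most of these factors also work in the pancreatic islet, and Isl1 and Pax6 work in neurons as well.

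Basic helix-loop-helix factors such as Neurog3 and Neurod1 bind E-boxes, the 6-base motif CANNTG, and the sequences upstream of the RefSeq start sites of 2 members are shown because Neurog3 was the member that changed and Nkx2-2 was the member that varied most closely with it. Both are read 5′ to 3′ on the gene's strand from the RefSeq promoter table of GRCm38.p6, stop before the first base annotated as exon, and carry every CANNTG in capitals.

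Neurog3, chr10:62132840-62133089, plus strand: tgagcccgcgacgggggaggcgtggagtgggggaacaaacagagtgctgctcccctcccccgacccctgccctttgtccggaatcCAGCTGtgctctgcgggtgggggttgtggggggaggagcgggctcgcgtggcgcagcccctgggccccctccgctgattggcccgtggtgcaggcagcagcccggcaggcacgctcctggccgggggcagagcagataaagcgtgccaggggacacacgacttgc

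Nkx2-2, chr2:147186456-147186652, minus strand: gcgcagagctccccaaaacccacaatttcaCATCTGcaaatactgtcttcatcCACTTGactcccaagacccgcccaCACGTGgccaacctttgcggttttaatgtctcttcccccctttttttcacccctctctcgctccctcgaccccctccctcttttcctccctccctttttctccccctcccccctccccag

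The Neurog3 stretch of 250 bases holds 1 CANNTG, and the Nkx2-2 stretch of 197 bases holds 3, which differ from one another in their central bases. In the GENCODE annotation the Nkx2-2 gene reaches further upstream than this RefSeq start, so the Nkx2-2 stretch lies within that gene. The table had an entry for 6 of the 8 members, and none was matched for Pax4 and Insm1. Over the full 300-base windows, Neurod1, Isl1 and Rfx6 each held 1 CANNTG, as did 1 of the 2 Pax6 windows, while the other held 0. The motif is common, and 72.3% of the 32851 promoter windows in the table held at least 1. The narrower form CAGATG, searched on both strands and contained in CANNTG, was found in 17.2% of all windows and, among the members, in Nkx2-2 alone. These matches describe the sequence and are no evidence of binding.

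On GRCm38, Neurog3 (ENSMUSG00000044312) lies on chromosome 10 from 62133090 to 62134763 and Rfx6 (ENSMUSG00000019900) on the same chromosome from 51677756 to 51730432. Chromosome 2 carries 4 members, Neurod1 (ENSMUSG00000034701), Pax6 (ENSMUSG00000027168), Insm1 (ENSMUSG00000068154, a gene of 1 exon) and Nkx2-2 (ENSMUSG00000027434). Pax4 (ENSMUSG00000029706) is on chromosome 6 and Isl1 (ENSMUSG00000042258) on chromosome 13. Of the exon bases annotated for Neurog3 by GENCODE, 16.3% (273 of 1674) are shared with Fam241b on the opposite strand, and the strand setting of the authors' counting is not given in the sources used here. Fam241b had mean counts-per-million (CPM) values of 8.72 to 9.99 by group and passed the threshold in none of the comparisons, at adjusted p values of 0.489 to 1 with edgeR.

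Library depth ranged from 9059457 to 35068711 counts, with a median of 18541819, and the 2 shallowest libraries were fasted Nt-/- replicates 2 and 4. The knockout was visible in Nts, which was at 6.75 to 8.59 CPM in ad libitum–fed Nt+/+ mice and at 0.144 to 0.746 CPM in ad libitum–fed Nt-/- mice. Fasted Nt+/+ mice held 4.98 to 5.71 CPM and fasted Nt-/- mice 0.214 to 0.793 CPM. Replicate 5 of the fasted Nt+/+ group carries a genotype label that contradicts its title. It was grouped by the title, and its Nts level lies in the fasted Nt+/+ range above, apart from the Nt-/- mice. Where the placing of this mouse turns a direction, the value is given in the closing section. Markers of the tissue were present, with the 8 crypt epithelium markers together at 5950 to 8420 CPM per mouse. The pancreatic genes Ins2 and Ptf1a were at 0 in every mouse, and the summed level was 5.79 to 10.8 CPM for the 8 neuron and glia markers and 1.78 to 4.28 CPM for the 6 pancreas markers.

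All 8 members passed the filter on low counts, but all were scarce. Counts per mouse ran from 2 to 32 for Pax4, from 5 to 103 for Neurog3, and from 35 to 179 for Rfx6. Compared per transcript length, in transcripts-per-million (TPM) units averaged over the 19 mice, Nkx2-2 was the highest at 2.58 ± 0.60 TPM (SD, n = 19). Pax6 followed at 1.93 ± 0.388 TPM, then Neurog3 at 1.77 ± 0.754 and Rfx6 at 1.76 ± 0.374 TPM. Neurod1, Insm1 and Isl1 lay between 1.29 and 1.49 TPM, and Pax4 was lowest at 0.578 ± 0.297 TPM.

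Neighbors in this order were set apart to unlike degrees. Nkx2-2 was above Pax6 in 16 of 19 mice and Isl1 above Pax4 in 16 of 19 mice. Rfx6 was above Neurod1 in 15 and Insm1 above Isl1 in 14 of 19 mice. In contrast, Pax6 was above Neurog3 in 12, Neurog3 above Rfx6 in 11, and Neurod1 above Insm1 in 10 of 19 mice, and these neighbors did not differ beyond their spread. By group, Nkx2-2 was highest and Pax4 lowest throughout, and the places between them moved. The mean TPM of Neurog3 was the second highest in both ad libitum–fed groups and the second lowest in both fasted groups, and Pax6, Neurod1, Rfx6, Insm1 and Isl1 changed places as well.

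**Figure D1:**
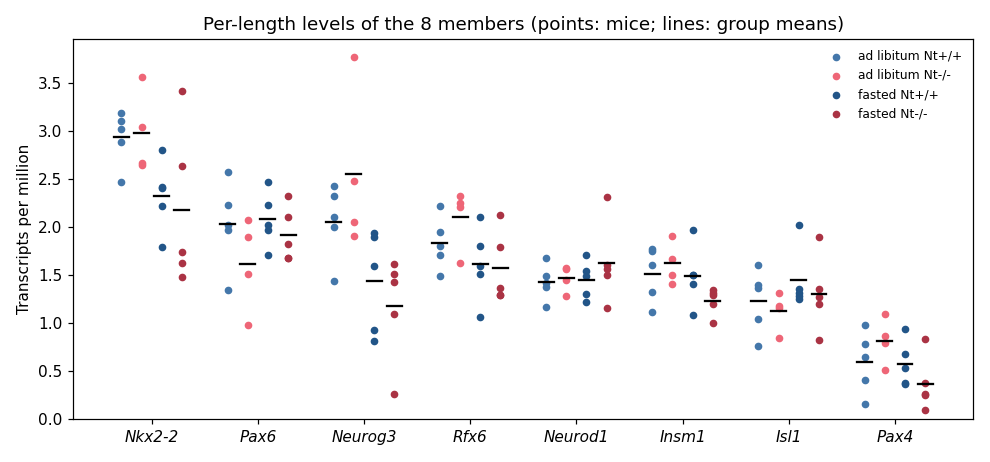
Levels (TPM) of the 8 members, ordered by their mean over 19 mice, with a point for each mouse, a color for each group and a line at each group mean. Neurog3 shows the widest spread, from 0.26 to 3.77 TPM, while Pax4 stays at or below 1.1 TPM in every mouse.

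Neurog3 was lower after fasting in Nt-/- crypts, by 2.37-fold, and it was the only member to pass the threshold (adjusted p under 0.05) in any comparison. Of all genes tested, 12.6% were called lower in the same comparison. The 4 ad libitum–fed Nt-/- mice had 2.74, 2.87, 4.96 and 2.34 CPM (replicates 1 to 4; mean, 3.23 ± 1.18). The 5 fasted Nt-/- mice had 2.08, 0.794, 0.289, 1.38 and 2.06 CPM (replicates 1 to 5; mean, 1.32 ± 0.786). The groups did not overlap, as was the case with lower levels after fasting for 10.8% of all genes, although their nearest mice were at 2.08 and 2.34 CPM and fasted replicate 3 rested on 5 counts. On the per-length scale the groups were apart as well, at 1.91 to 3.77 TPM and 0.26 to 1.61 TPM, but TPM comes from the same reads and adds no separate support. The 2 scales ordered the fasted mice differently. Fasted replicate 2, with 7 counts, was below replicate 4 in CPM (0.794 and 1.38) but above it in TPM (1.51 and 1.1). The fitted log2 fold change was −1.25 (SE, 0.40; 95% confidence interval, −2.08 to −0.42; adjusted p = 0.0265 by the quasi-likelihood test of edgeR, Benjamini-Hochberg over 17875 genes). In bulk crypt RNA, fewer Neurog3-expressing cells and less Neurog3 RNA per cell cannot be told apart.

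The call rested on individual mice. Without ad libitum–fed Nt-/- replicate 3, the highest mouse, the log2 fold change of Neurog3 was −0.97 (edgeR adjusted p = 0.117). Without fasted Nt-/- replicate 3, the lowest mouse, it was −0.97 (edgeR adjusted p = 0.0503), and without fasted replicate 2 it was −1.14 (edgeR adjusted p = 0.0581). Leaving out the 2 shallowest libraries gave −1.11 (edgeR adjusted p = 0.10). A fit of the Nt-/- groups alone gave −1.23 (edgeR adjusted p = 0.0558). Blocking on the set number that links mice of different groups gave −1.21 (edgeR adjusted p = 0.0127).

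In Nt+/+ crypts the corresponding Neurog3 values overlapped. Ad libitum–fed Nt+/+ mice had 3.6, 1.6, 2.25, 2.23 and 2.03 CPM (mean, 2.34 ± 0.749), and fasted Nt+/+ mice had 2.61, 1.09, 1.13, 1.71 and 2.24 CPM (mean, 1.76 ± 0.669). The difference of −0.41 on the log2 scale (SE, 0.37; 95% confidence interval, −1.19 to 0.37) did not pass edgeR's test (adjusted p = 0.472). The fasting effects of the 2 genotypes differed by −0.84 (SE, 0.55; 95% confidence interval, −1.98 to 0.30; edgeR adjusted p = 1), so a different Neurog3 response to fasting in Nt-/- mice was not shown. Fasted mice were also set beside the ad libitum–fed mouse of the same genotype and set number. Neurog3 was lower in the fasted mouse in 4 of 5 Nt+/+ pairs and 4 of 4 Nt-/- pairs. The Nt-/- count follows from groups that do not overlap and adds no support. Among Nt-/- pairs, Pax4, Insm1, Nkx2-2 and Rfx6 were also lower in 4 of 4, Pax6 in 2, and Neurod1 and Isl1 in 1. Pairs were not counted over all genes.

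Neurog3 and Pax4 varied more within groups than the other members. The coefficient of variation of CPM by group was 32% to 59.5% for Neurog3, 30.5% to 74.1% for Pax4, and 10.3% to 27.5% for the other 6 members. Over all 19 mice, differences between groups included, the highest level was 17.2 times the lowest for Neurog3, 8.93 times for Pax4, and 1.66 to 2.56 times for the others. For Neurog3 the biological coefficient of variation estimated by edgeR was 38.2%, above 88.6% of the genes of like abundance (within 0.5 log2 CPM), while those of Neurod1, Pax6, Isl1, Insm1, Nkx2-2 and Rfx6 were 15.3% to 19.3%. Pax4, at 36.6%, was nearer to its like-abundance genes, above 66.7% of them. Isl1 had a total of 747 counts over the 19 mice, against 781 for Neurog3, but its lowest mouse had 15 counts, against 5 for Neurog3. The part of low counts in the spread of Neurog3 was not tested.

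**Figure D2:**
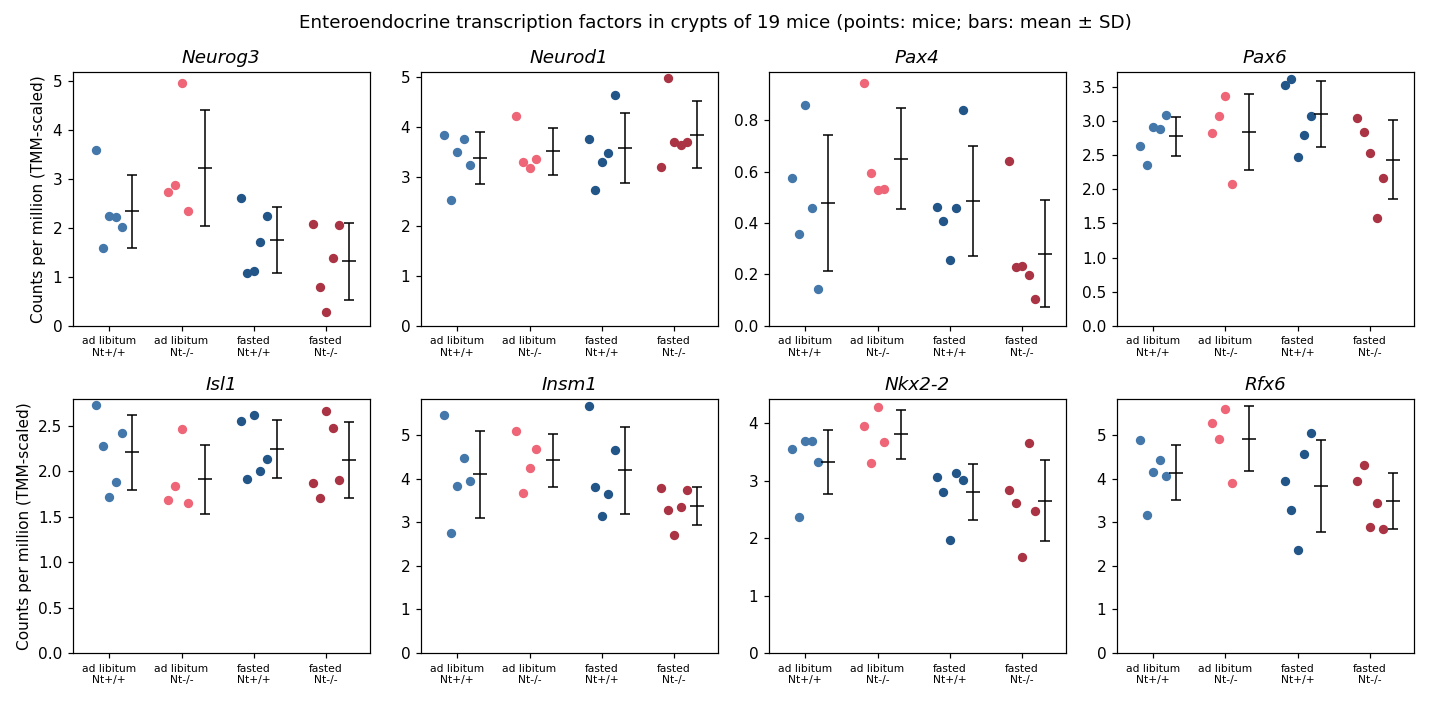
Levels (CPM) of each member, scaled by TMM (edgeR's library normalization), in every mouse of the 4 groups, with the group mean ± SD beside the points; each panel has its own axis from 0. In the Neurog3 panel the 5 fasted Nt-/- mice, at 0.289 to 2.08 CPM, sit below the 4 ad libitum–fed Nt-/- mice, at 2.34 to 4.96 CPM, whereas fed and fasted Nt-/- mice overlap for the other members.

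Neither of the 2 factors that follow Neurog3 passed the threshold in any comparison. Neurod1 was at 3.37 ± 0.524 CPM in ad libitum–fed and 3.58 ± 0.705 CPM in fasted Nt+/+ mice, and at 3.51 ± 0.476 and 3.85 ± 0.672 CPM in the corresponding Nt-/- groups. Its fitted fasting difference was 0.09 in Nt+/+ mice (95% confidence interval, −0.26 to 0.44) and 0.11 in Nt-/- mice (95% confidence interval, −0.26 to 0.48) on the log2 scale. Insm1 was at 4.10 ± 0.988 and 4.19 ± 0.994 CPM in ad libitum–fed and fasted Nt+/+ mice. In Nt-/- mice it was at 5.10, 3.68, 4.24 and 4.69 CPM when fed and at 3.79, 3.29, 2.72, 3.35 and 3.75 CPM when fasted, so that only fasted replicates 1 and 5 reached the lowest fed mouse. The Insm1 difference in Nt-/- mice was −0.39 (SE, 0.20; 95% confidence interval, −0.80 to 0.02) and did not pass edgeR's test (adjusted p = 0.164); it passed in 1 of 30 alternatives, with mice blocked by the number in their titles (−0.42; edgeR adjusted p = 0.0448), and with the block for the set number it was −0.33 (edgeR adjusted p = 0.0929). The fasted mouse was lower in 4 of 4 Nt-/- pairs and 2 of 5 Nt+/+ pairs of the same set number.

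Set against other members in the same library, Neurog3 had lower group medians in fasted than in fed mice. The ratio of Neurog3 to Neurod1 counts, taken within a mouse, had medians of 0.632 and 0.784 in ad libitum–fed Nt+/+ and Nt-/- mice and of 0.482 and 0.378 in fasted Nt+/+ and Nt-/- mice. Among Nt-/- mice it ran from 0.65 to 1.56 when fed and from 0.0781 to 0.65 when fasted. The ratio to Rfx6 had medians of 0.507, 0.592, 0.444 and 0.40 and the ratio to Insm1 medians of 0.581, 0.659, 0.459 and 0.412, in the same order of groups. For these 2 ratios the fed and fasted mice overlapped in the Nt-/- genotype. In Nt+/+ mice fed and fasted ranges overlapped for Neurod1 (0.595 to 0.938 and 0.344 to 0.692) and Rfx6 (0.5 to 0.735 and 0.333 to 0.662). They did not overlap for Insm1 there (0.5 to 0.658 and 0.286 to 0.482). The ratios carry no length correction, so they compare mice and not genes, and they were not tested.

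**Figure D3:**
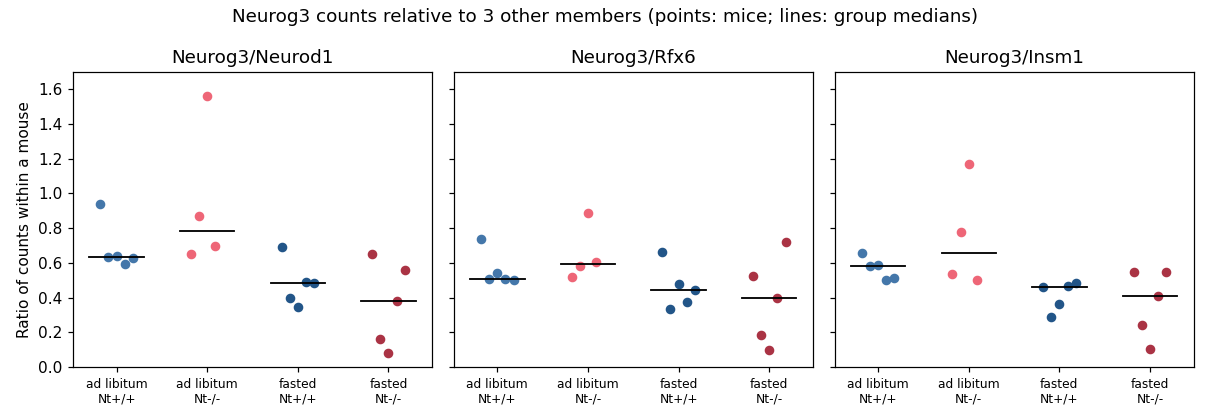
Ratio of Neurog3 counts to Neurod1, Rfx6 and Insm1 counts in each mouse, with lines at the group medians. All 3 ratios are lowest in fasted Nt-/- replicate 3, where Neurog3 had 5 counts, and the Neurod1 ratio is highest, at 1.56, in ad libitum–fed Nt-/- replicate 3.

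Nkx2-2 and Rfx6, the factors that act later in cell type choice, were lower in fasted than in fed Nt-/- crypts without passing the threshold. Nkx2-2 was at 3.95, 3.30, 4.29 and 3.68 CPM in ad libitum–fed Nt-/- mice and at 2.83, 2.61, 1.68, 3.65 and 2.48 CPM in fasted ones, and only fasted replicate 4 was within the fed range. Its log2 difference was −0.54 (SE, 0.20; edgeR adjusted p = 0.0571). Rfx6 was at 5.28, 4.92, 5.59 and 3.89 CPM when fed and at 3.95, 4.31, 2.89, 3.45 and 2.85 CPM when fasted, a difference of −0.51 (SE, 0.20; edgeR adjusted p = 0.0731).

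These 2 values stood close to the threshold. Nkx2-2 passed it in 8 of 30 alternatives and Rfx6 in 1 of 30, with adjusted p values that ran from 0.0222 to 0.148 and from 0.0385 to 0.182. Among these, Nkx2-2 passed with DESeq2 (adjusted p = 0.0445), with the block for the set number (−0.49; edgeR adjusted p = 0.0409), and without fasted Nt-/- replicate 4 (−0.67; edgeR adjusted p = 0.0222), while without ad libitum–fed Nt-/- replicate 3 it was −0.48 (edgeR adjusted p = 0.148) and without fasted Nt-/- replicate 3 it was −0.40 (edgeR adjusted p = 0.146). Rfx6 passed without fasted Nt+/+ replicate 3 (edgeR adjusted p = 0.0385), a mouse outside this contrast that enters through the shared estimate of the spread. In Nt+/+ mice the differences were −0.25 for Nkx2-2 (SE, 0.19) and −0.11 for Rfx6 (SE, 0.19), at edgeR adjusted p values of 0.384 and 0.739. Nkx2-2 was lower in the fasted mouse in 8 of 9 pairs of the same genotype and set number, as Neurog3 was, and Rfx6 in 6 of 9. The 4 Nt-/- pairs of Neurog3 among these could not come out otherwise, since its groups did not overlap.

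Of the factors tied to particular hormone cells, Pax4 was measured least well. It was at 0.944, 0.595, 0.53 and 0.533 CPM in fed and 0.641, 0.227, 0.231, 0.197 and 0.106 CPM in fasted Nt-/- mice. The 5 fasted values came from 2 to 12 counts, and fasted replicate 1 alone overlapped the fed mice. The log2 difference was −1.17 (SE, 0.48; 95% confidence interval, −2.17 to −0.16; edgeR adjusted p = 0.0841), and without that replicate it was −1.82 (edgeR adjusted p = 0.0133). Fed and fasted Nt+/+ mice had 0.478 ± 0.265 and 0.485 ± 0.215 CPM.

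Pax6 and Isl1 did not pass the threshold in any comparison or alternative. Pax6 was at 2.78 ± 0.285 and 3.10 ± 0.486 CPM in ad libitum–fed and fasted Nt+/+ mice and at 2.84 ± 0.555 and 2.43 ± 0.581 CPM in the corresponding Nt-/- mice. Isl1 was at 2.20 ± 0.41 and 2.24 ± 0.325 CPM in the Nt+/+ groups and at 1.91 ± 0.375 and 2.12 ± 0.417 CPM in the Nt-/- groups. The fasting difference of Isl1 was 0.02 (95% confidence interval, −0.36 to 0.40) in Nt+/+ and 0.16 (95% confidence interval, −0.26 to 0.57) in Nt-/- mice on the log2 scale.

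The members were also counted as a group and read against all genes tested. Fasting of Nt-/- mice changed 25.2% of all genes, with 12.6% lower and 12.5% higher, and 1 of 8 members fell and 0 rose, so that the share of members called lower was near that of all genes. Groups that did not overlap, with lower levels after fasting, were seen for 1 of 8 members and 10.8% of all genes. At an unadjusted p under 0.05, 4 of 8 members (Neurog3, Pax4, Nkx2-2 and Rfx6) were lower, against 19% of all genes, and 6 of 8 had a log2 fold change below 0, against 52.4%. The median log2 fold change was −0.45 for the members and −0.02 for all genes tested.

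The count of members called in fasted against fed Nt-/- mice moved with single mice. It was 0 without ad libitum–fed Nt-/- replicate 3 or without fasted Nt-/- replicate 2 or 3. Those fits called 3442 of 18078, 4088 of 17795 and 3727 of 17798 genes tested, beside 4499 of 17875 in the main fit. The member count was 2 without ad libitum–fed Nt+/+ replicate 2 or fasted Nt-/- replicate 4 (Neurog3 and Nkx2-2) and without fasted Nt-/- replicate 1 (Neurog3 and Pax4). It was 3 without fasted Nt+/+ replicate 3 (Neurog3, Nkx2-2 and Rfx6). In the same order, 4387 of 17715, 4080 of 17797, 4480 of 17735 and 4757 of 17700 genes tested were called. With mice blocked by set number the member count was 2 (Neurog3 and Nkx2-2), where 5672 of 17875 genes tested were called. Without the 2 shallowest libraries the member count was 1, with Nkx2-2 (−0.70, edgeR adjusted p = 0.0309) in place of Neurog3.

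In Nt+/+ mice fasting changed 21.6% of all genes tested and 0 of 8 members, with 0 members at an unadjusted edgeR p under 0.05 (34.1% of all genes) and 0 with DESeq2. Their median log2 fold change was 0.03, beside −0.01 for all genes, and 3 of 8 (Neurog3, Nkx2-2 and Rfx6) were below 0, against 50.9% of all genes. The difference of the fasting effects, Nt-/- minus Nt+/+, had a median of −0.39 over the members and −0.01 over all genes, and 6 of 8 members were below 0, against 52% of all genes. It was −1.22 (SE, 0.66) for Pax4 and −0.42 (SE, 0.27) for Insm1, with an edgeR adjusted p of 1 for every member. Of all genes 0% passed edgeR's test of this difference after adjustment, and no member passed it at an unadjusted p under 0.05 (2.71% of all genes did) or DESeq2's test after adjustment. The 2 fasting contrasts and the genotype contrasts share groups of mice and are not independent of one another.

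No member passed the threshold between genotypes in either diet. In ad libitum–fed mice 0 of 8 were called by edgeR or DESeq2 and 0 had an unadjusted edgeR p under 0.05, against 0.00559% and 1.67% of all genes. The largest differences were 0.50 for Pax4 (SE, 0.44) and 0.46 for Neurog3 (SE, 0.38; 95% confidence interval, −0.33 to 1.25) on the log2 scale, and Isl1 was the 1 member below 0, at −0.21 (SE, 0.19), against 50.4% of all genes. In fasted mice 0 of 8 were called by edgeR or DESeq2 and 0 had an unadjusted edgeR p under 0.05, against 0.00559% and 9.14% of all genes. There 7 of 8 were below 0, against 52.7% of all genes, with a median of −0.23. Neurog3 differed by −0.38 (SE, 0.39), Pax4 by −0.72 (SE, 0.49), Pax6 by −0.34 (SE, 0.18) and Insm1 by −0.31 (SE, 0.19), at edgeR adjusted p values of 0.618 to 0.841. For the other 4 members the difference lay between −0.15 and 0.09. The intervals differed in width between members, running from −0.26 to 0.44 for Neurod1 and from −1.74 to 0.30 for Pax4 in fasted mice.

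**Figure D4:**
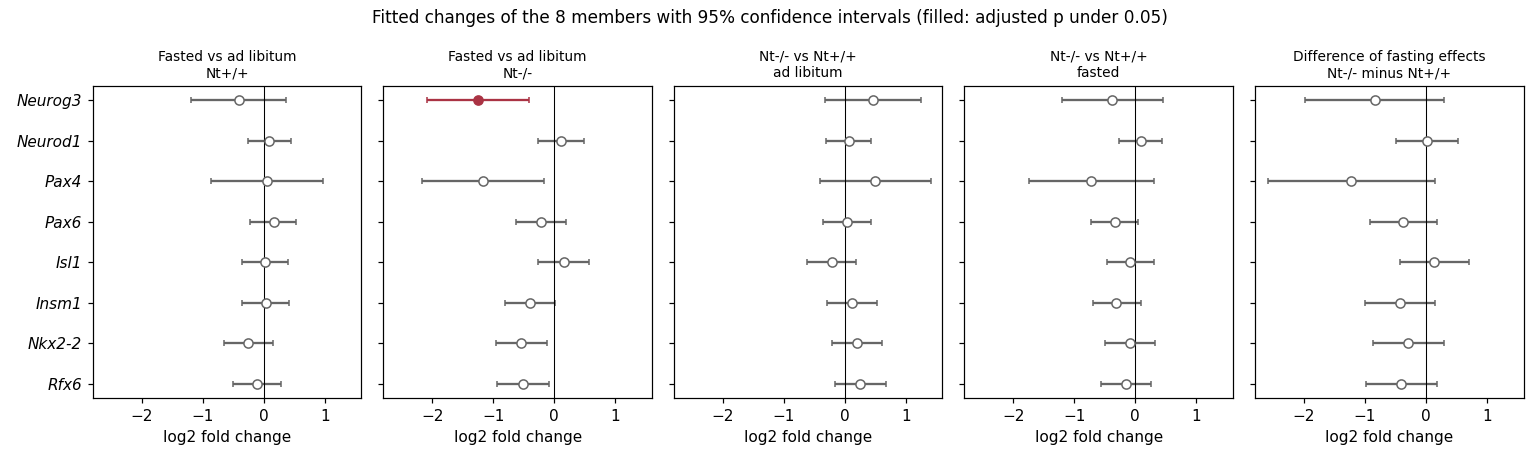
Fitted log2 fold changes of the 8 members in the 4 comparisons and in the difference of the fasting effects, with 95% confidence intervals and a line at 0; a filled point has an adjusted p under 0.05. Only Neurog3 in fasted against ad libitum–fed Nt-/- mice, at −1.25, is filled, and the intervals of Neurog3 and Pax4 are wider than those of the other members.

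Within groups, some members varied together from mouse to mouse. Over the deviations of log2 CPM from the group means in 19 mice, Neurog3 correlated with Nkx2-2 at r = 0.68 and with Insm1 at 0.65, and Nkx2-2 correlated with Rfx6 at 0.68. Over all 28 pairs of members the median r was 0.29, with 8 pairs above 0.5. All 6 pairs below 0 involved Isl1, the lowest being Isl1 with Pax4 at −0.35. These coefficients describe libraries that differ in depth and crypt makeup, which the members share. Only group means were removed, here and for the like patterns below. Mice of the same set number deviated together over all genes (mean r of 0.227 over 27 pairs, beside −0.0565 over 108 other pairs), so the 19 deviations are not independent. No cause of the coefficients was tested.

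**Figure D5:**
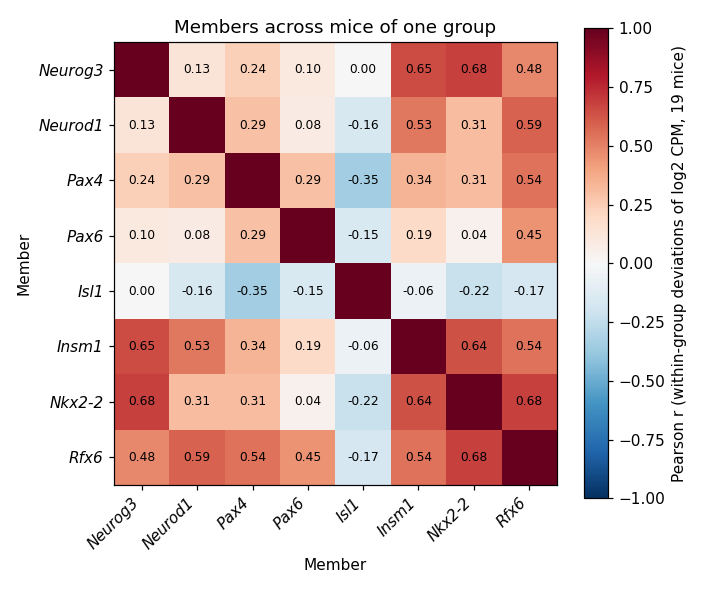
Pearson correlations between members, computed on deviations of log2 CPM from the group means over 19 mice. Neurog3, Insm1, Nkx2-2 and Rfx6 share values from 0.48 to 0.68, and the Isl1 row is near or below 0 throughout.

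The genes whose within-group pattern was most like the mean of the members were Adal (r = 0.92), Tti1 (0.89), Lrrc45, Usp42 and Pard6a (0.87 each), B3galnt2 (0.86), Dcakd, Slc14a1 and Ovca2 (0.85 each) and Tmem39a (0.84), over 19 mice and 15247 genes, of which 11.2% had an r above 0.5. None is a gene of the endocrine lists. Neurog3 was most like Cdc20 (0.91), an activator of the mitotic ubiquitin ligase, Kpna2 (0.88), a nuclear import factor, and Irf2bp1 (0.87). For Insm1 the nearest included Exosc3 (0.88) and Mrm3 (0.87), for Nkx2-2 Slc16a13, Gm16401 and Dlgap4 (0.84 to 0.86), and for Rfx6 Adal, Gm49321 and Socs5 (0.86 to 0.89). The nearest genes to Neurod1 (Ptpmt1, Batf2 and Dclk2), Pax4 (Tmem198b, Bcat2 and Gm28539), Pax6 (Ces1c, Rab23 and Zfp251) and Isl1 (Trp53rkb, Mettl22 and Hyal3) reached 0.73 to 0.80. By list, the median r with the mean of the members was 0.63 for 10 Notch and secretory fate genes, 0.57 for 15 other endocrine lineage regulators, 0.30 for 20 pan-endocrine secretory genes and 0.07 for 9 hormone genes, beside 0.07 for all genes. For markers of other cells it was 0.44 for 5 Paneth, 0.38 for 5 tuft and 0.36 for 8 crypt epithelium markers, −0.06 for 5 immune, −0.26 for 5 stroma and −0.28 for 5 goblet markers, and −0.56 for 7 villus enterocyte markers.

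Among the other regulators of the lineage, fasting lowered 1 gene in each genotype. Of all genes tested, it changed 21.6% in Nt+/+ and 25.2% in Nt-/- mice. Of 18 listed 15 were tested, and Rfx3, a ciliogenic RFX factor that is also needed for islet endocrine cells, fell by 1.16 in Nt+/+ mice (SE, 0.13; edgeR adjusted p = 4.78e-06) and by 0.80 in Nt-/- mice (SE, 0.14; edgeR adjusted p = 0.000299) on the log2 scale. Its levels were 20.0 ± 1.26 and 8.95 ± 1.6 CPM in fed and fasted Nt+/+ mice and 19.4 ± 2.33 and 11.1 ± 2.03 CPM in fed and fasted Nt-/- mice, with no overlap of fed and fasted mice. The list's median log2 fold change was −0.11 in Nt+/+ and −0.28 in Nt-/- mice. Between genotypes 0 of 15 were called in either diet. The smallest p values there were those of Lmx1a (0.25; SE, 0.18) and Runx1t1 (0.25; SE, 0.22) in fed mice and of Rfx3 (0.32; SE, 0.13) and Atoh1 (−0.32; SE, 0.29) in fasted mice, at edgeR adjusted p values of 0.466 to 1.

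Upstream of the members, none of 10 tested genes of Notch signaling and secretory fate passed edgeR's test in any comparison. Fasting changed 21.6% of all genes tested in Nt+/+ and 25.2% in Nt-/- mice. Hes5 of this list was too low to test. The smallest p values on fasting belonged to Mfng (0.68; SE, 0.35) and Dll1 (0.28; SE, 0.15) in Nt+/+ mice and to Spdef (−0.91; SE, 0.34) and Atoh1, which opens the secretory fate (−0.56; SE, 0.30), in Nt-/- mice, at edgeR adjusted p values of 0.0546 to 0.214. Between genotypes they belonged to Notch1 (0.17; SE, 0.13) and Spdef (0.35; SE, 0.33) in fed mice and to Atoh1 (−0.32; SE, 0.29) and Notch1 (−0.13; SE, 0.12) in fasted mice. For the difference of the fasting effects they belonged to Notch1 (−0.30; SE, 0.17) and Spdef (−0.54; SE, 0.47).

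Downstream, few of the genes that mature endocrine cells share passed the test. Fasting changed 21.6% of all genes tested in Nt+/+ and 25.2% in Nt-/- mice, shares that also stand beside the hormone genes below. Of 20 tested pan-endocrine secretory genes, 1 rose and 0 fell on fasting in Nt+/+ mice, and 2 rose and 1 fell in Nt-/- mice. Chga, which encodes the granule protein chromogranin A, rose by 0.39 in Nt+/+ (SE, 0.12; edgeR adjusted p = 0.0212) and 0.42 in Nt-/- mice (SE, 0.13; edgeR adjusted p = 0.0195). Snap25, a component of the vesicle fusion machinery, rose by 0.84 in Nt-/- mice (SE, 0.30; edgeR adjusted p = 0.0455) at levels of 0.586 to 2.17 CPM, and Vwa5b2 fell by 0.64 (SE, 0.16; edgeR adjusted p = 0.00608). Summed over the 22 listed genes, the median level per mouse was 411 and 444 CPM in fed and fasted Nt+/+ mice and 441 and 454 CPM in fed and fasted Nt-/- mice, while the 8 members summed to 22.9, 21.8, 25.2 and 19.7 CPM in the same order. Between genotypes 0 of 20 were called, the smallest p values being those of Tph1 (0.32; SE, 0.15) and Slc18a1 (0.27; SE, 0.13) in fed mice and of Snap25 (0.67; SE, 0.29) and Vwa5b2 (−0.31; SE, 0.16) in fasted mice.

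Of 9 tested hormone genes, Sst, which encodes somatostatin, rose on fasting by 0.55 in Nt+/+ (SE, 0.12; edgeR adjusted p = 0.0033) and 0.68 in Nt-/- mice (SE, 0.13; edgeR adjusted p = 0.000882). In Nt-/- mice Gcg, the precursor of the glucagon-like peptides, fell by 0.49 (SE, 0.12; edgeR adjusted p = 0.00549) and Pyy, which encodes peptide YY, by 0.71 (SE, 0.23; edgeR adjusted p = 0.0324). Fed and fasted Nt-/- mice had 29.0 ± 1.32 and 20.5 ± 3.87 CPM of Gcg and 1.65 ± 0.428 and 0.988 ± 0.199 CPM of Pyy. The Gcg difference in Nt+/+ mice was −0.23 (SE, 0.11; edgeR adjusted p = 0.163). Apart from Nts, no hormone gene was called between genotypes, and no gene of the 4 endocrine lists was called for the difference of the fasting effects.

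Markers of other cells moved with the fasting comparison in which Neurog3 fell. Villus enterocyte markers rose in 5 of 7 cases in Nt+/+ mice and 7 of 7 in Nt-/- mice, and their summed level ran from 2880 to 6120 and 4470 to 6770 CPM in fed Nt+/+ and Nt-/- mice and from 5620 to 12500 and 10800 to 14700 CPM in fasted ones. Mki67, a marker of dividing cells, fell by 0.46 in Nt+/+ (SE, 0.09; edgeR adjusted p = 0.000866) and 0.59 in Nt-/- mice (SE, 0.09; edgeR adjusted p = 0.000119), and Olfm4, a marker of crypt base stem cells, fell by 0.63 (SE, 0.21; edgeR adjusted p = 0.0322) and 0.92 (SE, 0.22; edgeR adjusted p = 0.00409). These were 2 of 8 crypt epithelium markers, and the other 6 were not called. Of 5 immune markers Itgam, found on myeloid cells, fell by 0.83 in Nt+/+ (SE, 0.13; edgeR adjusted p = 0.000146) and 0.54 in Nt-/- mice (SE, 0.14; edgeR adjusted p = 0.00653). Goblet markers showed 1 of 5 higher and 2 of 5 lower in Nt-/- mice and 1 of 5 in each direction in Nt+/+ mice, whereas 0 of 5 Paneth, 0 of 5 tuft and 0 of 5 stroma markers were called. Beside these counts, fasting changed 21.6% of all genes tested in Nt+/+ and 25.2% in Nt-/- mice. The part of the marker changes in the Neurog3 result was not tested.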

How the data were processed

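RNA sequencing of intestinal crypts from 19 mice, 1 library each, was used, with groups taken from the sample titles. The authors depleted ribosomal RNA, obtained single-end reads, used Trimmomatic (version 0.39, per the submitters' processing notes) for trimming, and quantified Ensembl transcripts of GRCm38 with RSEM, whose version is not given in the sources used here. The deposited files hold RSEM's expected counts, which are not normalized and divide ambiguous reads between genes, the authors' TPM values, and effective lengths in bases, another unit; the deposited FPKM column was not used. Expected counts were rounded. TPM served only for levels per length.

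Counts were TMM-normalized and filtered with filterByExpr in edgeR (version 4.0.16; R version 4.3.3), leaving 17875 genes. A fit with 1 coefficient per group (15 residual degrees of freedom) was tested by the quasi-likelihood test with Benjamini-Hochberg adjustment at 0.05 over all genes tested. Each SE is the absolute log2 fold change over the square root of the test's F statistic. The confidence intervals use this SE with a t quantile, so both are approximate. The procedure was also tested on simulated data whose spread followed abundance alone, which does not cover a gene as variable as Neurog3. The members and gene lists, and the rules for named genes and for like patterns (Pearson r of within-group deviations of log2 CPM, prior count 2, the 10 nearest genes for the mean of the members and the 3 nearest for each), were chosen with earlier results of these data known. From other lists, genes called were named, or else those with the smallest p values; some genes that these rules select are not reported here. GENCODE vM21 and RefSeq supplied coordinates and promoters. DESeq2 (version 1.42.0) and other alternatives were run.

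Neither the labels nor the paper say what the numbers carried by titles and file names mean. Same-numbered mice deviated together by the number in the file names, every pair in each of the 4 comparisons having an r above 0.1, and by that of the titles in 2 of them. Replicates are separate mice.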

Additional observations from a re-analysis of the deposited data

Results flagged for a closer look

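Within groups, 6 of 32 combinations of member and group held a mouse set apart from the others by Dixon's criterion, for which chance gives about 1 in 20. Neurod1 was high in ad libitum–fed Nt-/- replicate 1 (4.22 CPM; others, 3.18 to 3.36 CPM) and in fasted Nt-/- replicate 2 (4.99 CPM; others, 3.20 to 3.70 CPM), the shallowest library. Pax4 was high in replicate 1 of both Nt-/- groups, at 0.944 CPM in the fed mouse (others, 0.53 to 0.595 CPM) and at 0.641 CPM in the fasted one (others, 0.106 to 0.231 CPM). Nkx2-2 was low in ad libitum–fed Nt+/+ replicate 2 (2.36 CPM; others, 3.33 to 3.70 CPM) and in fasted Nt+/+ replicate 3 (1.96 CPM; others, 2.80 to 3.14 CPM). No cause was tested.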

How the results depend on the processing

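In 4 of the 5 comparisons 0 members were called under every alternative. For fasting in Nt-/- mice (1 member), the count was 0 with only the groups compared, 2 with DESeq2, and 0 to 3 when each mouse was left out. Over all genes tested, the main fit called 4499 of 17875, the fit of the compared groups 3988 of 16967, and DESeq2 4727 of 17875. With a replicate block, the member count was 2 for the set number and 3 for the number of the titles (Neurog3, Insm1 and Nkx2-2). The calls over all genes rose as well, to 5672 and 5657 of 17875. The block changed no other member count. The Neurog3 difference in Nt-/- mice ran from −1.5 to −0.97 over 29 alternatives and passed in 24 of them (edgeR or DESeq2 adjusted p, 0.00831 to 0.117). This count overstates the firmness of the call. Every fit without an Nt+/+ mouse passed, but such a mouse is outside this contrast. The single-mouse fits that did not pass all left out an Nt-/- mouse. Leaving out the mouse of contradictory labels and leaving out fasted Nt+/+ replicate 5 are the same fit, counted under both names. Requiring 10 counts in each of the mice removed Neurog3 and Pax4 and left 1 call, Nkx2-2 (−0.54; edgeR adjusted p = 0.0441). Leaving out the 2 shallowest libraries was chosen after seeing the data.

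No member that changed sign was called on either side. With the mouse of contradictory labels left out or grouped as Nt-/-, fasting differences in Nt+/+ mice were −0.02 for Neurod1, −0.24 for Pax4 and −0.01 for Insm1, and with it grouped as Nt-/- the fasted genotype difference of Rfx6 was 0.08. Without the 2 shallowest libraries, Neurod1 was −0.02 between fasted genotypes and −0.09 in the difference of the fasting effects. When single mice were left out, fasting differences in Nt+/+ mice ran from −0.02 to 0.17 for Neurod1, −0.24 to 0.34 for Pax4, −0.10 to 0.16 for Insm1, −0.05 to 0.11 for Isl1 and −0.23 to 0.03 for Rfx6. Genotype differences ran from −0.04 to 0.12 (Neurod1) and −0.06 to 0.15 (Pax6) in fed mice and from −0.01 to 0.20 (Neurod1) and −0.22 to 0.04 (Nkx2-2) in fasted mice, and the difference of the fasting effects from −0.08 to 0.13 for Neurod1. The cause was not tested. Pax4 had the lowest counts (2 to 32 per mouse), which limits its values.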
